A study of Mus musculus with 16 samples.

Results

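Endothelial cells with arterial markers were examined in single-cell libraries of mouse cortex, from wild-type (WT) animals and their THY-Tau22 littermates. A cell was taken as endothelial when it held at least 3 unique molecular identifiers (UMIs, each counting 1 captured transcript) summed over Cldn5, Flt1, Slco1a4, Itm2a, Ly6c1 and Abcb1a, and at most 1 UMI summed over P2ry12, Cx3cr1, Aqp4, Mag, Mog, Syt1, Pdgfra, Vtn and Acta2, which mark microglia, astrocytes, oligodendrocytes, neurons, oligodendrocyte precursors, pericytes and smooth muscle. It was an arterial-marker cell when it also held at least 1 UMI of Bmx, Gkn3, Sema3g or Vegfc. Of 24578 barcodes with 200 to 7000 detected genes, 3775 were endothelial by this rule and 643 were arterial-marker cells. The remaining 3132 are called the other endothelial cells. The 19 genes of the rule chose the cells, so their values are given as a description with no test, except where an arterial gene was measured in cells chosen without it.

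The mice were 17 months old, and 1 Drop-seq library of dissociated neocortex was made per mouse. THY-Tau22 mice were heterozygous for a human tau transgene with the G272V and P301S changes, driven by the neuronal promoter Thy1, so the transgene is directed to neurons and not to the endothelium. Heterozygous males were mated to C57Bl6/J females to keep the line, and WT littermates carried no transgene. Of 16 libraries, 14 were used: in males 3 of WT and 3 of THY-Tau22 mice, in females 3 of WT and 5 of THY-Tau22 mice. Replicate 3 of the WT males and replicate 4 of the THY-Tau22 males were left out, because their tables shared 2952 of 3000 barcodes and so held 1 library under opposite genotypes. They held 40 and 41 arterial-marker cells, 32 of them in both. Among the 14 tables, the 91 pairs shared 3 to 12 barcodes, and 1 arterial-marker cell carried a barcode that another table also held. The titles of THY-Tau22 female replicate 1 and WT male replicate 1 give 1 animal number for both, under opposite sex and genotype, and their tables shared 5 barcodes. Replicate numbers only name a mouse. The tables held 1041675 to 2237505 UMIs each.

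Arteries carry blood into the cortex under pulsatile pressure, and their endothelium sits on an elastic layer wrapped in smooth muscle. Notch signalling and shear stress maintain arterial identity, while capillary endothelium carries most of the nutrient transporters of the blood-brain barrier and veins express regulators such as Nr2f2. The change from artery to capillary to vein is gradual, so arterial markers are detected in arteries and arterioles and may fade into the capillary bed.

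The 4 arterial genes are unlinked. Per GENCODE M21, which uses the mm10 build named in the submitters' processing notes, Bmx lies on chromosome X from 164192842 to 164258193, Gkn3 on chromosome 6 from 87383256 to 87388935, Sema3g on chromosome 14 from 31217860 to 31230352, and Vegfc on chromosome 8 from 54077606 to 54187096. Bmx is a tyrosine kinase of arterial endothelium, Gkn3 is a secreted gastrokine that marks brain arteries, Sema3g is a secreted semaphorin and Vegfc is a growth factor of lymphatic vessels. Sema3g was found in 321 of the 643 cells (49.9%), Bmx in 266 (41.4%), Gkn3 in 259 (40.3%) and Vegfc in 54 (8.40%). Membership often rested on a single molecule. In 341 cells (53.0%) the sum over the 4 genes was 1 UMI, 302 cells (47.0%) held 2 or more, and the largest sum in a cell was 55. A total of 448 cells held 1 of the 4 genes, 140 held 2, 48 held 3 and 7 held all 4.

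The arterial genes occurred together. Gkn3 was found in 97 of 266 endothelial cells with Bmx (36.5%) and in 162 of 3509 without it (4.62%). Sema3g was found in 90 of the 266 (33.8%) and in 231 of the 3509 (6.58%). Vegfc shared the pattern: Gkn3 was present in 25 of 54 cells with Vegfc (46.3%) and in 234 of 3721 without (6.29%). Cells with several arterial genes were also deeper, with a median of 713 UMIs for 1 gene and 1756 for all 4.

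Each arterial gene was then measured in endothelial cells chosen by the other 3, so that the gene itself played no part in the choice. Values are CPM, the UMIs of a gene divided by all UMIs of the summed cells of a mouse and scaled to a fixed total, which takes out the depth of the cells. Bmx reached 451 ± 229 CPM (SD, n = 14 mice) in cells holding another arterial gene and 66.2 ± 33.7 CPM in cells holding none. It was higher in 14 of 14 mice (two-sided exact sign-flip permutation test, p = 0.000122, the smallest this test can give, adjusted p = 0.000163 over the 4 genes). Gkn3 was at 511 ± 320 against 83.6 ± 50.2 CPM and Sema3g at 389 ± 133 against 99.2 ± 22.7 CPM, each higher in 14 of 14 mice with the same exact p. Vegfc, the scarcest, was at 65.5 ± 34.7 against 6.21 ± 7.14 CPM and higher in 12 of 14 mice (exact p = 0.000488). The ratio of the means was 6.81 for Bmx, 6.11 for Gkn3, 3.92 for Sema3g and 10.5 for Vegfc.

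**Figure D1:**
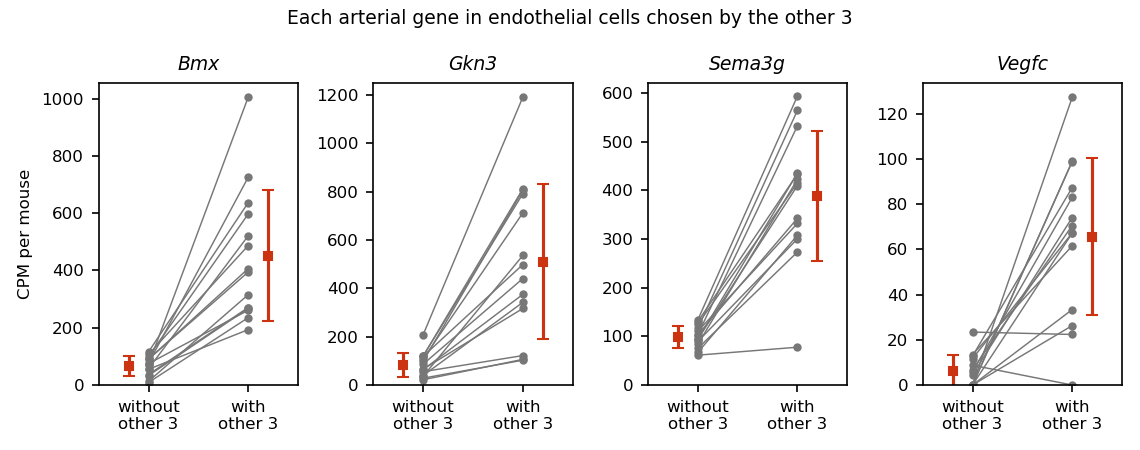
Level of each arterial gene (y axis, CPM) in endothelial cells without and with a UMI of the other 3 arterial genes; each line is 1 of 14 mice and red squares are means ± SD. All 14 lines rise for Bmx, Gkn3 and Sema3g, and 12 of 14 rise for Vegfc.

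Arterial UMIs were rare in microglia, oligodendrocytes and astrocytes of the same libraries. Those cells were gated by at least 3 UMIs of their own markers and at most 1 UMI summed over the endothelial genes of the rule. The endothelial limit also removes barcodes mixed with endothelial RNA, which can lower the shares. At least 1 arterial UMI was held by 16 of 5001 microglia (0.320%, exact 95% interval 0.183 to 0.519), 30 of 5918 oligodendrocytes (0.507%, 0.342 to 0.723) and 33 of 5117 astrocytes (0.645%, 0.444 to 0.905). The share in endothelial cells was 17.0% (15.8 to 18.3). Median depth was 589, 592 and 594 UMIs in those 3 cell types and 569 in endothelial cells. Such intervals cover counting error only.

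The threshold values can be read from the cells beside it. The 341 cells with 1 arterial UMI had a median of 660 UMIs and those with none a median of 536. The 32 arterial-marker cells with exactly 3 endothelial UMIs had a median of 445 UMIs, and 20 cells with arterial UMIs stopped at 2. On the side of the excluded genes, 117 members held 1 such UMI, of which 43 held Vtn, a pericyte gene, and 15 held Acta2, smooth muscle actin, and 53 cells with arterial UMIs were left out at exactly 2. In all, 935 cells of 200 to 7000 genes held an arterial UMI, 166 of them failing on the excluded genes and 126 on the endothelial genes.

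Among the endothelial genes of the rule, Ly6c1, a surface protein of endothelium, was higher in arterial-marker cells of 14 of 14 mice, with medians of 2504 and 1680 CPM. Slco1a4, an organic anion transporter, was lower in 14 of 14 mice (1627 and 1850 CPM). Cldn5, the tight junction claudin named as a marker of these cells, had medians of 2105 CPM in arterial-marker and 1961 CPM in other endothelial cells and was higher in 6 of 14 mice. It was present in 65.9% and 62.3% of the cells. Flt1, a VEGF receptor, had medians of 5215 and 5361 CPM. Acta2 was seen in 2.33% of arterial-marker and 0.415% of other endothelial cells.

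Arterial-marker cells were found in every library, 21 to 87 per mouse. They were deeper than the other endothelial cells of the same mouse in 14 of 14 mice, with medians per mouse of 581 to 1098 against 445 to 699 UMIs (exact sign-flip permutation test, p = 0.000122). A deeper cell has more chances to yield an arterial UMI, so the rule itself selects deeper cells and this p cannot show more than that. The comparison of the classes below was therefore repeated in cells of 500 to 2000 UMIs.

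Arterial-marker cells were compared with the other endothelial cells of the same mice to find which genes outside the rule went with the arterial markers. UMI counts were summed per mouse and class and tested with edgeR with the mouse as a block. Genes counted as called had a log2 fold change (logFC) of 0.5 or more in either direction and a p, adjusted by the Benjamini-Hochberg method, below 0.05. Of 1617 genes tested, 105 were called (6.49%), 57 higher (3.53%) and 48 lower (2.97%) in arterial-marker cells. The filter on low counts could admit a gene for its level in 1 class alone, so the balance of calls partly depends on it. Without the filter 458 genes were called, most of them lower, and 71 of them were among the 105. Genes of arterial endothelium were higher, and transporters typical of capillaries were lower. In cells of 500 to 2000 UMIs 78 genes were called. Of the 105, 67 could be tested there: 67 had the same sign and 59 were called. These are part of the same cells, so agreement in sign was likely beforehand.

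Stmn2, a microtubule regulator first known from neurons and here on the arterial list, had the smallest p. It measured 318 to 989 CPM (median 573) in arterial-marker cells and 60.7 to 282 CPM (median 171) in the other cells, so the classes did not overlap over 14 mice (logFC = 1.71 ± 0.121 SE, edgeR adjusted p = 4.89e-18). Timp3, an inhibitor of matrix metalloproteinases, ranged from 1648 to 2917 CPM against 479 to 1458 CPM, again without overlap (logFC = 1.06). Ccnd2, a cyclin of the G1 phase, ranged from 147 to 512 against 33.7 to 126 CPM (logFC = 1.86), also without overlap. Tmem100, a membrane protein of arterial endothelium induced by BMP signalling, had the largest rise among the 12 leading genes, with a median of 222 against 45.4 CPM (logFC = 2.42 ± 0.212). Each of these 4 genes was higher in 14 of 14 mice.

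The other leading genes that rose were Adamts1, a secreted protease (logFC = 1.16), Tm4sf1, a tetraspanin-like membrane protein (1.39), Cdk19, a kinase of the mediator complex (medians of 509 and 149 CPM), Crip1, a small LIM-domain protein (1.30), Fos, an immediate early transcription factor (0.69), Cp, the ferroxidase ceruloplasmin (0.97), Rgs5, a regulator of G protein signalling used as a pericyte marker (0.80), and Hbegf, a ligand of the EGF receptor (1.21). Hbegf was higher in 13 of 14 mice and the other 7 in 14 of 14. Adjusted p-values of these 8 genes lay between 6.31e-16 for Adamts1 and 1.41e-09 for Hbegf (edgeR).

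The gene lists were chosen with earlier results of these data known, so counts and medians over them are no independent evidence. The filter could also admit a gene for its level in arterial-marker cells alone. Of the 25 arterial genes listed outside the rule, 9 had enough counts to be tested. Their median logFC was 1.07, beside 0.01 over the 1617 genes tested. 7 were called higher and none lower, and the other two had a logFC of 0.46 (Sox17, an arterial transcription factor) and 0.40 (Nebl, a nebulin-related actin-binding protein), under the size required for a call. Edn1, the vasoconstrictor endothelin, had medians of 819 and 366 CPM and was higher in 14 of 14 mice (logFC = 0.85 ± 0.106, edgeR adjusted p = 2.84e-09). Alpl, an alkaline phosphatase of arteriolar endothelium, had medians of 181 and 74.8 CPM (logFC = 1.07). Mgp, an inhibitor of vascular calcification, had medians of 709 and 283 CPM (logFC = 1.21), but 1 cell held 26.2% of its UMIs in arterial-marker cells and it was higher in 11 of 14 mice. Clu, the secreted chaperone clusterin, was higher in 10 of 14 mice (logFC = 0.58).

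The other 16 arterial genes were too sparse for the test. In pooled counts 25 of the 25 listed genes had a higher CPM in arterial-marker cells, as did 41.4% of the 20298 genes with any UMI outside the rule. The list was chosen with earlier results of these data known, so this count only describes it. Efnb2, the arterial ephrin ligand, had 119 against 42.1 CPM pooled over the mice. Hey1, a Notch target, had 125 against 39.5 CPM, and Jag1, a Notch ligand, 105 against 46.6 CPM. Fbln5, an elastic fibre protein, had 41 UMIs in arterial-marker cells of 7 mice and 7 UMIs in the more numerous other cells. Gja5, a connexin of arterial endothelium, was nearly absent, with 2 and 1 UMIs, so at this depth its level could not be compared. Cytl1, a small secreted protein, had 25 UMIs over 8 mice against 0 in the other cells.

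Notch pathway genes were mostly below the depth needed. 2 of 12 were tested and neither was called. Notch1, the receptor, had a logFC of 0.28 and Hes1, a target, one of -0.04. Pooled levels stood higher in arterial-marker cells for 10 of the 12, beside 41.4% of the 20298 genes with any UMI outside the rule. Of the Notch genes, Efnb2, Hey1, Jag1 and Dll4 also stand on the arterial list.

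Capillary genes went the other way. Of 15 listed, 14 were tested, 8 were called lower and none higher, and the median logFC was -0.62. Over the 1617 genes tested, 2.97% were called lower and 3.53% higher. Slc16a1, the monocarboxylate transporter of the blood-brain barrier, ranged from 50.0 to 215 CPM in arterial-marker cells and from 240 to 663 CPM in the others, with no overlap (logFC = -1.49 ± 0.153, edgeR adjusted p = 4.67e-12). Car4, a membrane-bound carbonic anhydrase of capillaries, had medians of 108 and 362 CPM (logFC = -1.60). Tfrc, the transferrin receptor that brings iron into the brain, had medians of 163 and 406 CPM (logFC = -1.20). Amino acid transporters fell as well, with logFC values of -0.90 for Slc7a5, -0.75 for its partner Slc3a2 and -0.60 for Slc7a1. Mfsd2a, the lipid transporter that marks the barrier, had a logFC of -0.64 and was lower in 11 of 14 mice. Slc2a1, the glucose transporter GLUT1, did not pass the test, with medians of 603 and 527 CPM.

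**Figure D2:**
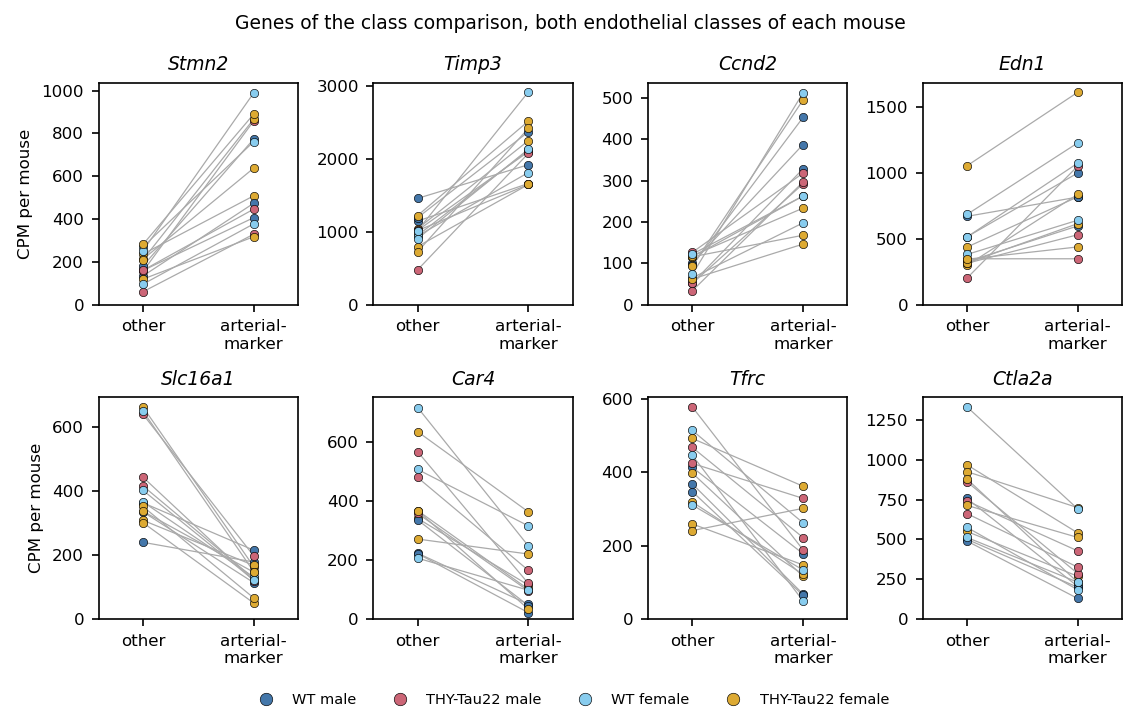
Level of 8 genes (y axis, CPM) in the other endothelial cells and the arterial-marker cells of each of 14 mice, joined by a line and coloured by group. Stmn2, Timp3, Ccnd2 and Edn1 were higher and Slc16a1, Car4 and Ctla2a lower in arterial-marker cells of 14 of 14 mice; Tfrc was lower in 13 of 14.

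Of 19 genes of barrier junctions and transport, 17 were tested and 6 were called lower, beside 2.97% of the 1617 genes tested. None was called higher. The 6 were transporters or receptors: Tfrc, Slc7a5, Slc3a2 and Mfsd2a, already given under capillary genes, Abcg2, the efflux pump BCRP (medians of 373 and 640 CPM, logFC = -0.63), and Slc22a8, an organic anion transporter (86.1 and 149 CPM, logFC = -0.83), which the capillary list also holds. Slc22a8 lost its call without cells holding mural UMIs, the alternative given with the mural markers. None of the junction genes tested was called. Cdh5, the adherens junction cadherin, had a logFC of 0.29 and Tjp1, a tight junction scaffold, one of -0.28.

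The venous list was thinly covered, with 3 of 16 genes tested. Tmsb10, an actin-binding thymosin found in venous and other activated endothelium, was called lower (medians of 191 and 468 CPM, logFC = -1.48). Nr2f2, the venous transcription factor, had medians of 99.8 and 111 CPM and did not pass the test. In pooled counts 12 of the 15 listed genes with any UMI stood lower in arterial-marker cells. So did 11899 of the 20298 genes with any UMI outside the rule.

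Of 14 immediate early genes, which respond within minutes to stimuli including tissue dissociation, 14 were tested. 6 were called higher in arterial-marker cells, beside 3.53% of the 1617 genes tested, none lower, and 8 were not called. The median logFC was 0.48, with Jun at 0.08 and Jund at 0.03. Fos had medians of 5134 and 3042 CPM and was higher in 14 of 14 mice. Atf3, a stress-induced transcription factor, had medians of 1922 and 1136 CPM (logFC = 0.69), and Cyr61, a matrix-associated growth regulator, had medians of 350 and 212 CPM (logFC = 0.75). Egr1 and Fosb, both early transcription factors, had a logFC of 0.58 and 0.57. Without the filter on low counts the logFC of Fos was 0.36, of Cyr61 0.42 and of Fosb 0.25, and none of the 3 was called. Atf3 (0.37) and Egr1 (0.27) fell below the size required there as well. That setting moved the median of the 1617 genes by -0.30. The part of dissociation in these values was not tested.

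Calls in the next lists stand beside 3.53% called higher and 2.97% called lower over the 1617 genes tested. Of 14 shear stress and vasoactive genes, 10 were tested and 1 was called, Edn1, which the arterial list also holds. Thbd, the anticoagulant receptor thrombomodulin, had a logFC of -0.19. The flow-induced factors Klf2, Klf4 and Klf6 had logFC values of 0.32, 0.37 and 0.49 with edgeR adjusted p-values of 0.00102, 4.37e-05 and 4.92e-06, below the size required for a call. MHC class I and interferon genes had a median logFC of 0.37 over the 7 of 17 tested, none called, with B2m, the light chain of MHC class I, at 0.43. Elastic fibre and basement membrane genes had 6 of 16 tested and 2 called higher: Mgp, given above, and Ltbp4, a TGF-beta binding protein of elastic fibres (logFC = 0.64). Of the receptors and targets of VEGF, TIE and BMP signalling, 12 of 16 were tested and 1 was called lower, Nrp1, the neuropilin co-receptor of VEGF (logFC = -0.51). Nrp1 lost the call without THY-Tau22 female replicate 4 (logFC = -0.49), THY-Tau22 male replicate 1 (-0.48) or 3 (-0.44, edgeR adjusted p = 0.0571) or WT female replicate 2 (-0.50, short of the size required). The 6 of 13 mitochondrial transcripts tested had a median logFC of -0.18 and none was called.

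Among the other leading genes that fell, Ctla2a, a cathepsin inhibitor of capillary endothelium, had medians of 277 and 728 CPM and was lower in 14 of 14 mice (logFC = -1.11). Igf1r, the receptor for insulin-like growth factor 1, had medians of 494 and 889 CPM (logFC = -0.77). Fmo2, a flavin monooxygenase, had the largest fall among the 12 leading genes (logFC = -1.71). Hmcn1, an extracellular hemicentin, had a logFC of -1.36 and Tiam1, a Rac exchange factor, one of -1.27. Mt1, a metal-binding metallothionein (-0.88), and Arl4a, a small GTPase (-0.54), were also lower.

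Markers of other cell types moved with the classes. Mbp, a myelin gene of oligodendrocytes, was lower in arterial-marker cells of 14 of 14 mice (medians of 63.8 and 126 CPM, logFC = -1.15 ± 0.229, edgeR adjusted p = 0.000117). Mbp passed the filter on low counts in 5 of the 14 fits that left out 1 mouse, and was called in those 5. Slc1a2, the astrocyte glutamate transporter, and Ctss, a microglial cathepsin, were also called lower, with logFC values of -0.64 and -0.81 (DESeq2 did not call Slc1a2, adjusted p = 0.0733). Over the whole lists, 7 of 7 oligodendrocyte and 8 of 8 microglial markers stood lower in pooled counts. So did 11899 of the 20298 genes with any UMI outside the rule. Summed levels per mouse were 319 to 1780 against 998 to 4067 CPM for oligodendrocyte markers and 33.6 to 841 against 198 to 1140 CPM for microglial markers. With no UMI of the excluded genes allowed, Slc1a2 (-0.47) and Ctss (-0.55) were not called. The 8 astrocyte markers summed to a median of 1507 against 1662 CPM, higher in 4 of 14 mice, and the 7 neuronal markers to 154 against 178 CPM, higher in 5. Fibroblast markers summed to 103 against 97.7 CPM, red cell markers to 8.59 against 58.0 CPM and ependymal markers to a range of 0 to 49.9 against 8.87 to 52.4 CPM, and no gene of these 3 lists was tested. The rule allows 1 excluded UMI in a cell of any depth, and arterial-marker cells were deeper. The part of this limit and of free RNA in the result was not tested.

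Among mural cell markers Rgs5 was called higher. It had medians of 2091 and 1209 CPM and was higher in 14 of 14 mice. The summed pericyte list stood at 1368 to 3894 CPM against 830 to 2161 CPM, higher in 14 of 14 mice, with Rgs5 giving 1520 of its UMIs in arterial-marker cells and the other 7 markers 12 to 35 each. In pooled counts 5 of the 8 pericyte markers stood higher and 3 lower: Kcnj8 (19.6 against 24.2 CPM) and Abcc9 (26.6 against 47.5 CPM), subunits of a potassium channel, and Atp13a5 (16.8 CPM in arterial-marker cells). The summed smooth muscle list stood at 830 to 2563 CPM against 692 to 1432 CPM, higher in 13 of 14. Most of the smooth muscle sum came from Tpm1, a tropomyosin that endothelium also expresses (medians of 1040 and 723 CPM, logFC = 0.46), and 1 of the 9 listed genes had no UMI in either class. In pooled counts the other 8 all stood higher in arterial-marker cells. Among the 8 were Myh11 (215 against 35.9 CPM), Mylk (212 against 67.7 CPM) and Tagln (26.6 against 2.69 CPM). Over the 20298 genes with any UMI outside the rule, 41.4% stood higher, the base for both mural lists. At least 1 UMI of 11 mural genes (Tagln, Myh11, Cnn1, Des, Pln, Kcnj8, Abcc9, Atp13a5, Higd1b, Pdgfrb and Cspg4) was present in 155 of 643 arterial-marker cells (24.1%) and in 316 of 3132 others (10.1%). With those cells left out of both classes, an alternative chosen after seeing the data, 86 genes were called and Rgs5 fell to a logFC of 0.48, under the size required for a call. 91 of the 105 called genes could be tested there, 91 had the same sign and 72 were called. Stmn2 kept a logFC of 1.70, Edn1 one of 0.77 and Slc16a1 one of -1.46.

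Members differed by the arterial gene that brought them in, given as pooled levels with no test. The 121 cells with only Gkn3 held 2441 CPM of the smooth muscle list and 2971 CPM of the pericyte list. The 194 cells with only Sema3g held 1129 and 1548 CPM, nearer to the other endothelial cells at 903 and 1430 CPM. Levels of the arterial list outside the rule were 6414 CPM with only Gkn3, 4882 CPM with only Bmx, 4234 CPM with only Sema3g and 7577 CPM in the 195 cells with 2 or more of the genes, against 2833 CPM in other endothelial cells. The capillary list was highest with only Sema3g, at 10242 CPM, near the 10837 CPM of the other cells. The 15 cells with only Vegfc, from 8 mice, are too few for a comparison.

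The study asked how tau pathology changes cortical cells in each sex, so the number and the expression of arterial-marker cells were compared by genotype within each sex. The share of endothelial cells with an arterial UMI was 19.7%, 16.5% and 20.5% in the 3 WT males and 14.4%, 20.4% and 14.6% in the 3 THY-Tau22 males. The groups overlapped (16.5% ± 3.42 in THY-Tau22 and 18.9% ± 2.10 in WT, two-sided exact permutation test, p = 0.300, where 3 against 3 mice cannot go below 0.1). In females the shares were 18.8%, 10.8% and 18.4% in WT and 16.1%, 16.8%, 15.3%, 21.6% and 11.9% in THY-Tau22 mice, again overlapping (16.0% ± 4.46 in WT and 16.3% ± 3.49 in THY-Tau22, exact permutation p = 0.929, smallest possible 0.0179). Adjusted over the 4 comparisons of shares and levels, p was 0.929 in each.

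After each cell was thinned to 500 UMIs, which left 2271 cells and removed 1504 shallower ones, 16.6% ± 0.640 of the cells in WT males and 14.7% ± 6.54 in THY-Tau22 males held an arterial UMI. The values in females were 14.4% ± 6.72 and 16.1% ± 3.95. Without thinning, the same cells gave 24.9% and 21.0% in males and 20.7% and 21.5% in females. The summed level of the 4 arterial genes over all endothelial cells was 529 ± 47.9 CPM in WT and 451 ± 207 CPM in THY-Tau22 males (exact permutation p = 0.600) and 443 ± 210 and 498 ± 214 CPM in females (p = 0.714). Of all kept cells, arterial-marker cells made up 3.26% ± 0.632 in WT and 2.24% ± 0.719 in THY-Tau22 males (exact permutation p = 0.200) and 2.74% ± 0.795 and 2.29% ± 0.348 in females (exact permutation p = 0.321). The share of endothelial cells among kept cells was lower in THY-Tau22 mice without overlap in both sexes, at 13.4% ± 1.86 against 17.2% ± 1.52 in males (exact permutation p = 0.1, the smallest possible) and 14.2% ± 1.33 against 17.2% ± 1.24 in females (exact permutation p = 0.0357). The part of this endothelial share in the share of arterial-marker cells among kept cells was not tested. The permutation p-values for shares of kept cells are unadjusted, come from many measures compared and lie outside the 4 comparisons adjusted together. A difference between genotypes in the arterial share of endothelial cells was not detectable with these numbers of mice. Fewer such cells and less arterial RNA per cell cannot be told apart by the share alone.

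**Figure D3:**
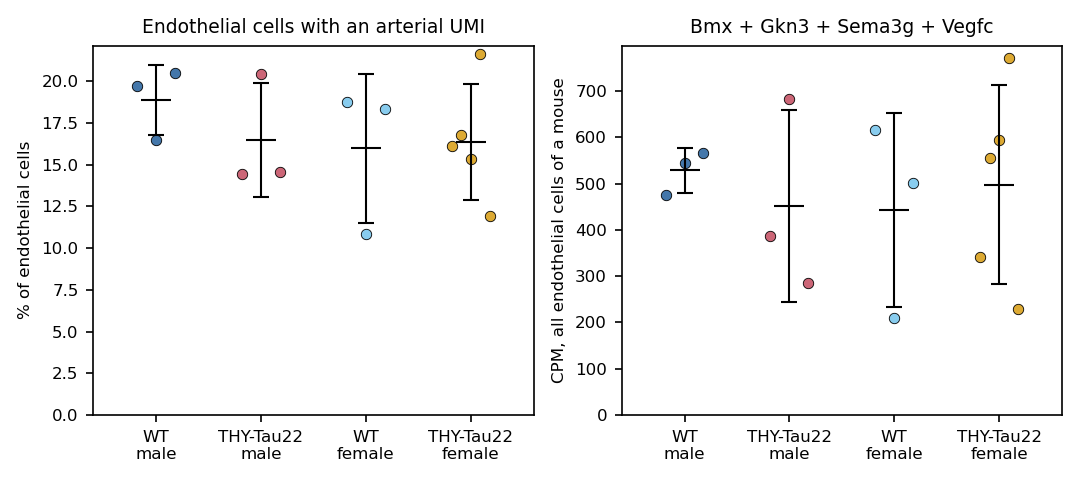
Left, percent of endothelial cells with at least 1 UMI of Bmx, Gkn3, Sema3g or Vegfc; right, summed level of the 4 genes (CPM) over all endothelial cells. Points are the 14 mice by group and bars are means ± SD; the THY-Tau22 and WT points overlap in both sexes.

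Within arterial-marker cells, 989 genes were tested between genotypes by edgeR over the 14 mice. In males 2 genes were called (0.202%), both higher in THY-Tau22, and DESeq2 called 3. At an unadjusted p under 0.05 were 132 genes, where 49.45 are expected by chance. B2m measured 813, 1297 and 668 CPM in the WT males and 3115, 2954 and 3788 CPM in the THY-Tau22 males (logFC = 1.69 ± 0.377 SE, edgeR adjusted p = 0.0440). Klf2, the shear-induced transcription factor, measured 1163, 1184 and 991 CPM in WT and 2638, 2954 and 6160 CPM in THY-Tau22 males (logFC = 1.66 ± 0.378, adjusted p = 0.0440). Both calls were close to the threshold. Klf2 and B2m were also higher in the other endothelial cells of the same males: B2m at 532 to 738 against 1785 to 2253 CPM and Klf2 at 885 to 1167 against 2172 to 2549 CPM. Those cells come from the same mice and are no separate evidence.

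The male calls depended on single libraries. Both were lost, with edgeR adjusted p-values from 0.0519 to 0.497, when THY-Tau22 male replicate 2 or 3, WT male replicate 1, 2 or 4, WT female replicate 1 or THY-Tau22 female replicate 1, 2 or 5 was left out; females enter because the groups share 1 estimate of spread. Leaving out THY-Tau22 male replicate 1 lost B2m (adjusted p = 0.0816) and kept Klf2. Leaving out WT female replicate 2 raised the count to 9, WT female replicate 3 to 15 and THY-Tau22 female replicate 4 to 4. With all 16 libraries as labelled no gene was called, with logFC values of 1.27 for B2m and 1.29 for Klf2 and an adjusted p of 0.257 for both. Without the filter on low counts both calls were lost (edgeR adjusted p = 0.129 for B2m and 0.162 for Klf2), and 3 other genes were called, all lower.

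Genes beside B2m had values of the same sign without being called. Over the 7 of 17 MHC class I and interferon genes tested, logFC in males ranged from 1.09 to 1.69 with a median of 1.19, against -0.02 over the 989 genes, and 1 (B2m) was called. In females the same 7 genes had a median logFC of -0.40, with 2 positive and none called. H2-D1, an MHC class I heavy chain, measured 323 to 592 CPM in WT and 1150 to 1614 CPM in THY-Tau22 males (logFC = 1.48, adjusted p = 0.0540), and Ubb, a polyubiquitin gene, 257 to 345 and 944 to 1049 CPM (1.64, adjusted p = 0.0540); these 2 are named after their values were seen. Other measures of the libraries moved with genotype in males. The median mitochondrial share of arterial-marker cells was 0.279% to 0.472% in WT and 0.701% to 1.01% in THY-Tau22 males, and the 6 mitochondrial transcripts tested had a median logFC of 0.93, none called. Gm42418, an annotation that overlaps ribosomal RNA and is also named after its values were seen, measured 5053 to 9866 CPM in WT and 1318 to 3074 CPM in THY-Tau22 males. Their part in the differences of B2m and Klf2 was not tested. The 3 smooth muscle markers tested had a median logFC of -1.17 in males, none called.

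**Figure D4:**
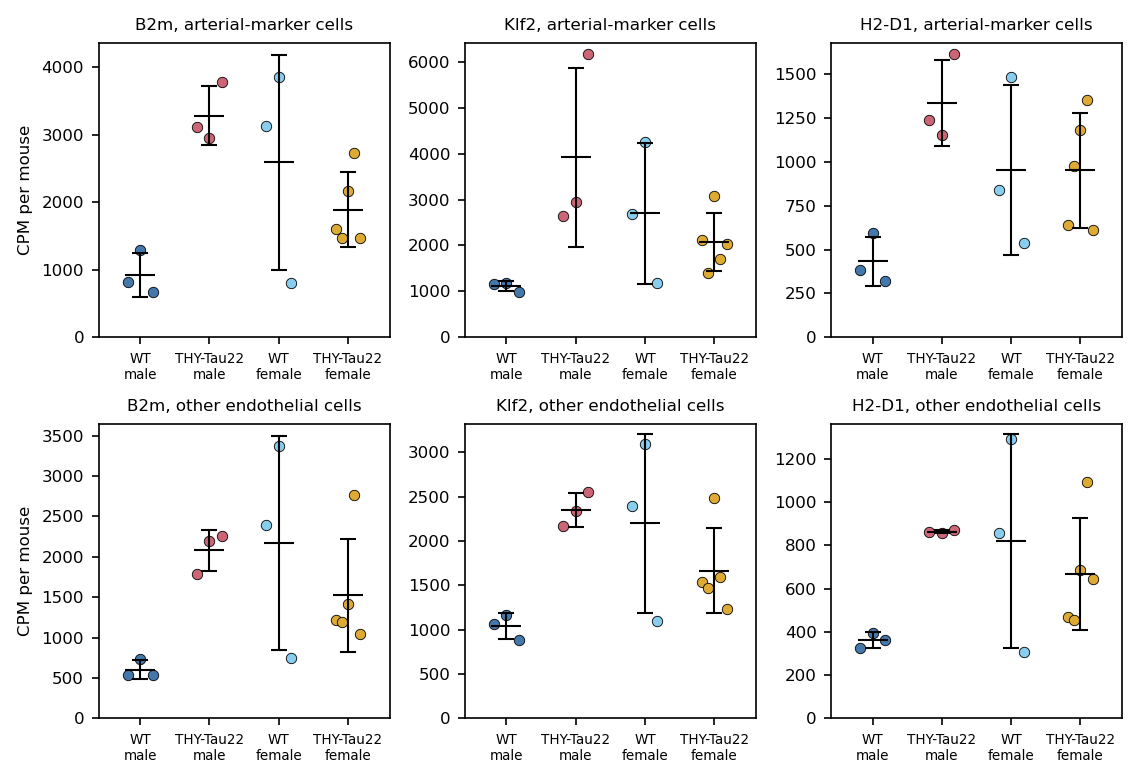
Levels (y axis, CPM) of B2m, Klf2 and H2-D1 by group in arterial-marker cells (top) and other endothelial cells (bottom); points are mice and bars are means ± SD. THY-Tau22 males lie above WT males in both rows, which come from the same mice, and the female groups overlap.

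In females no gene was called (0%), and DESeq2 called none. At an unadjusted p under 0.05 were 16 of 989 genes, where 49.45 are expected by chance. Without WT female replicate 3, 1 gene was called. B2m measured 3125, 3856 and 804 CPM in WT females and 1465 to 2736 CPM (median 1608) in THY-Tau22 females, with the groups overlapping. The genes with the smallest p are given as values: Fn1, the matrix protein fibronectin, at 98.9 to 195 CPM in WT and 264 to 591 CPM in THY-Tau22 females (logFC = 1.48, adjusted p = 0.561), Ctcf, a chromatin architecture protein (1.30), Plec, the cytolinker plectin (-1.31), and Atp5c1, a subunit of ATP synthase (-0.93), the last 3 at an adjusted p of 0.992.

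Averaged over both sexes, no gene was called (0%), and none by DESeq2. At an unadjusted p under 0.05 were 68 of 989, where 49.45 are expected by chance. S100a13, a calcium-binding protein, and H2-D1 had the smallest p among positive values (logFC = 1.18 and 0.77) and Filip1l, a filamin-interacting protein, and Akap13, an anchoring protein for kinases, among negative ones (-0.97 and -0.87), all at an adjusted p of 0.665. The sex by genotype interaction called no gene (0%), and none by DESeq2. At an unadjusted p under 0.05 were 90, where 49.45 are expected by chance. Myl12a, a myosin light chain, and B2m had the largest support for a more positive logFC in males (2.27 and 2.09, adjusted p = 0.0782 for both), and Kmt2a, a histone methyltransferase, and Ctcf for a more negative one (-2.12 and -1.83, adjusted p = 0.264 for both). The interaction count depended on 1 library: without WT female replicate 3, whose levels of B2m and Klf2 were near those of WT males, 53 genes were called.

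Of 9 genes that the study listed for endothelial cells on these same mice, and which are therefore no independent evidence, 9 were tested in arterial-marker cells. In males B2m was called and the others were not: Id3, an inhibitor of DNA binding induced by BMP (logFC = 0.88), Eif3a, a translation initiation factor (-0.95), Sparcl1, a matrix glycoprotein (0.64), Ccdc88a, the actin-binding protein girdin (-0.55), Rock1, a kinase that acts on the cytoskeleton (-0.995), Cxcl12, a chemokine (-0.06), Ccdc141 (-0.39) and Malat1, a nuclear long noncoding RNA (-0.71). The arterial list itself held 10 tested genes, none called by genotype in either sex, with a median logFC of 0.35 in males and -0.03 in females. The 14 immediate early genes had medians of 0.23 and -0.32, none called. For the 9 study genes in females none was called, and their logFC values ran from -0.40 for B2m to 0.44 for Ccdc141.

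The genotype difference was then set against that of the other endothelial cells of the same mice, which tests whether arterial-marker cells changed differently. In males no gene of 2818 was called (0%), and none by DESeq2. At an unadjusted p under 0.05 were 126, where 140.9 are expected by chance. The rise of B2m and Klf2 in males was thus not shown to differ between the classes. The smallest p among positive values belonged to Gimap8, an immune GTPase (3.81), and Slc1a2 (1.29), and among negative ones to Hbb-bs, a beta globin of red cells (-6.32), and Ogn, a proteoglycan of fibroblasts (-4.89), at edgeR adjusted p-values of 0.337, 0.444, 0.114 and 0.158. In females 3 genes were called (0.106%), all with a more negative logFC in arterial-marker cells: Ptgds, a prostaglandin synthase of meningeal and perivascular cells (-3.12), Nov, a matricellular protein (-4.70), and Gja1, a connexin (-3.69). DESeq2 called none. Counts were low and uneven. Ptgds had 114 UMIs in the arterial-marker cells of WT females, 106 of them in WT female replicate 1, without which its logFC was -1.26 (adjusted p = 0.999). Nov had 11 UMIs in arterial-marker cells of WT females and 5 in those of THY-Tau22 females, and was lost without THY-Tau22 female replicate 3 (adjusted p = 0.245) or WT female replicate 3 (0.269). Gja1 had 17 and 6 UMIs and was lost without WT female replicate 2 (0.965), WT female replicate 3 (0.0981) or THY-Tau22 female replicate 5 (0.165).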

How the data were processed

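The authors deposited 1 digital expression table per mouse with UMI counts per gene and barcode, not normalized, limited to 3000 barcodes, made from Drop-seq reads. The submitters' processing notes name the mm10 build, and aligner versions are not given in the sources used here. The deposited UMI counts were summed per mouse and class, never tested cell by cell. Python 3.11.15 (numpy 2.4.6, pandas 2.3.3, scipy 1.17.1, matplotlib 3.10.9) and R 4.3.3 were used. Tests across genes used the quasi-likelihood test of edgeR 4.0.16 with TMM scaling, its filter on low counts and Benjamini-Hochberg adjustment, and DESeq2 1.42.0 was an alternative. The class comparison had the mouse as a block. The genotype comparisons were fitted over the 4 groups of sex and genotype, which share 1 estimate of spread. Calls needed an adjusted p below 0.05 together with a log2 fold change of 0.5 or more in size. Some genes tested are not reported here. The 19 genes of the cell rule were left out of tests. CPM are relative to all UMIs of the summed cells.

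The genes named were the 12 called genes with the smallest p in each direction of the class comparison, up to 5 called members of each gene list with the smallest p, the defining members of each list with their values, up to 5 called genes in each direction of each genotype comparison (or, where none was called, the 2 with the smallest p in each direction) and the study's endothelial genes. Others are said to be chosen after their values were seen, or are list members given as values. The members and lists were chosen with earlier results of these data known. The scripts were tested on simulated data. Alternatives were other scaling, no filter, no block, stricter cell rules, a depth window, other uses of the library that stood under both genotypes and leaving out each mouse. No doublet caller was run. A cell with more than 1 UMI of the excluded genes was removed.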

Additional observations from a re-analysis of the deposited data

Results flagged for a closer look

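In 7 of 89 sets of values tested (7.87%), 1 THY-Tau22 female lay apart from the other 4 in her arterial-marker cells. The cut-off used gives about 5% for independent, normally distributed values. Several of these sets are sparse counts, so that 5% is no measure of chance here. Replicate 4 had 1615 CPM of Hbb-bs, from 49 UMIs, against 0 to 67.1 CPM in the others. The same mouse had 461 CPM of Filip1l, from 14 UMIs, against 97.7 to 201 CPM, and 0 CPM of Gja1 against 24.4 to 33.6 CPM. Gja1 had 6 UMIs over all THY-Tau22 females, at most 2 in a mouse. Replicate 3 had 3200 CPM of Mgp, from 192 UMIs, against 73.3 to 638 CPM. Replicate 5 had 659 CPM of Slc1a2, from 27 UMIs, against 82.0 to 198 CPM, and 0 CPM of Acta2 against 32.8 to 33.6 CPM. Acta2 had 15 UMIs in all arterial-marker cells, so its values rest on few UMIs. Replicate 1 had 16.4 CPM of Syt1, which is 1 UMI, and the others had none.

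Genotype differences in females differed between arterial-marker and other endothelial cells for Ptgds (log2 difference -3.12), Nov (-4.70) and Gja1 (-3.69) by edgeR. Each rested on few UMIs and lost its call without at least 1 mouse, as given in the report.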

How the results depend on the processing

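Leaving out each mouse gave 95 to 112 called genes in the class comparison, 0 to 15 by genotype in males, 0 to 1 in females, 0 to 53 for the interaction, and 0 to 9 (9 without THY-Tau22 male replicate 2) and 1 to 4 for the genotype difference between classes in males and females. The difference in arterial share then ran from -2.22 to 1.75 percentage points in females, and that in summed arterial CPM from -61.0 to 142 in females and from -193 to 5.97 in males. Among study genes that turned sign were, in females, Eif3a (-0.28 to 0.51), Id3 (-0.53 to 0.0919), Rock1 (-0.12 to 0.998) and Sparcl1 (-0.32 to 0.0812) and, in males, Cxcl12 (-0.27 to 0.0342).

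Without the filter on low counts 458 genes were called between classes (79 higher and 379 lower), 3 with sexes averaged, 1 in females, 3 in males (0 higher and 3 lower, with B2m and Klf2 not called), 2 for the interaction and 3 for the male difference between classes. The 105 class calls kept their sign under every setting in which they could be tested. These settings reuse the same mice and mostly the same cells, so agreement in sign was likely beforehand. Without the mouse block 72 were called, 70 of them among the 105. The male calls went to 0 with all 16 libraries as labelled, with the shared library as THY-Tau22 male and with at least 2 arterial UMIs. The male difference between classes called 11 genes with no excluded UMI and 4 with the shared library as WT male. The female one called 0 by DESeq2 and 1 with all 16 libraries or with at least 2 arterial UMIs. With at least 2 arterial UMIs, and with no excluded UMI, the share in females differed by -0.399 and -0.462 percentage points, and Sparcl1 in females was at 0.0369 and 0.0362 (0.0028 without the filter). Rock1 in females was at -0.0056 with at least 2 arterial UMIs. Cxcl12 in males was at 0.17 with no excluded UMI and 0.0918 with the shared library as THY-Tau22 male, where Hbb-bs was at 0.42. The cause of these changes was not tested. No paired analysis was possible because replicate numbers between genotypes only name mice.

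Depth limits what can be seen: 21 to 87 cells per mouse left 989 genes for the genotype tests, and most Notch, venous and arterial genes fell below the filter.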
